A study of Mus musculus with 10 samples.

Results

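Hippocampal RNA of 4 mice killed 4 days after an experimental subarachnoid hemorrhage (SAH) was compared with that of 3 Naive mice that had no surgery. These 7 mice were 7 of the 10 in the series and were chosen by their condition label alone, and the comparison took in all 14954 genes with enough reads to test. All were male mice of 10 to 14 weeks, of a strain that the study's methods spell C56BL/6J, and no drug is named as a treatment apart from the anesthetic of the operation. Each library was the total RNA of both whole hippocampi of 1 animal, so the 4 and the 3 are separate animals. In the SAH mice a filament passed through the carotid artery under isoflurane perforated the circle of Willis on 1 side, which releases arterial blood under the skull base, and only animals whose cortical blood flow fell sharply at that moment had been kept. The Naive mice had no surgery, so the effects of the operation and of the bleeding cannot be told apart in this contrast. The other 3 mice were Sham operated, with the filament advanced but no perforation. They did not enter the fit, and their values stand beside a result only to show where they lay.

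In this model blood spreads along the base of the brain and over its covering membranes, and the hippocampus is reached at a distance rather than torn. The meninges hold collagen-making fibroblasts and resident border macrophages, the choroid plexus in the ventricle next to the hippocampus makes cerebrospinal fluid, and both can come along when a hippocampus is lifted out. Within the tissue, astrocytes and microglia answer injury with structural, complement and interferon-dependent genes, oligodendrocytes make myelin, and neurons switch on immediate early genes within minutes of firing. In such bulk RNA, fewer cells of a type and less RNA per cell cannot be told apart, nor can more cells and more RNA per cell.

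The 7 libraries held 19743388 to 26866167 counted read pairs, and values are given below as CPM, a gene's counted pairs scaled to the same library total in every mouse. Pairs that fell on more than 1 gene or mapped to more than 1 place were not counted, so genes with near-identical copies are read low. The tissue label held: the 8 dentate granule neuron markers summed to 608.9 to 651.6 CPM in Naive and 616.9 to 704 CPM in SAH mice, and the 9 pyramidal neuron markers to 913.8 to 976 and 902.5 to 1004 CPM. Markers of lymphocytes and neutrophils were low, with 7 neutrophil markers summing to 0.2257 to 0.5519 CPM in Naive and 0.5149 to 1.305 CPM in SAH mice, 5 B cell markers to 0.2057 to 0.5943 and 0.3197 to 0.4352 CPM, and 9 T and NK cell markers to 1.995 to 2.52 and 1.655 to 2.398 CPM. The 6 globin genes among the erythroid markers were at 0 in every mouse. They have near-identical copies, whose shared reads were not counted, so their level is not known from these counts. Some libraries stood apart: SAH mice 3 and 4 and Sham mouse 7 carried far more choroid plexus RNA than the rest, and SAH mouse 3 alone was high in genes induced by glucocorticoids. Their values stand below with the genes concerned.

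By edgeR's quasi-likelihood test at an adjusted p below 0.10, 282 of the 14954 genes differed between SAH and Naive hippocampus, 1.89% of those tested. Of these, 201 were higher in SAH (1.34% of tested genes) and 81 lower (0.542%). The rises were also the larger changes, with a median log2 fold change of 1.05 against -0.50 among the genes that fell, while the median of all tested genes was 0.0023. A doubling or more was fitted for 108 of the 201, and a drop by at least the same factor for 10 of the 81. In all 282 called genes the 4 SAH mice lay wholly beyond the 3 Naive mice. Over all tested genes, called or not, every SAH mouse lay above every Naive mouse in 1050 (7.02%) and below in 1019 (6.81%), and 1893 genes had an unadjusted p below 0.05. The calls rested on few Naive mice: 42, 49 or 58 of the 282 kept theirs without Naive mouse 8, 9 or 10, and 122 without SAH mouse 4, while every called gene that could be tested kept its sign. Only 28 of the rises and 9 of the falls were called in each of the 7 fits that left out 1 mouse.

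**Figure D1:**
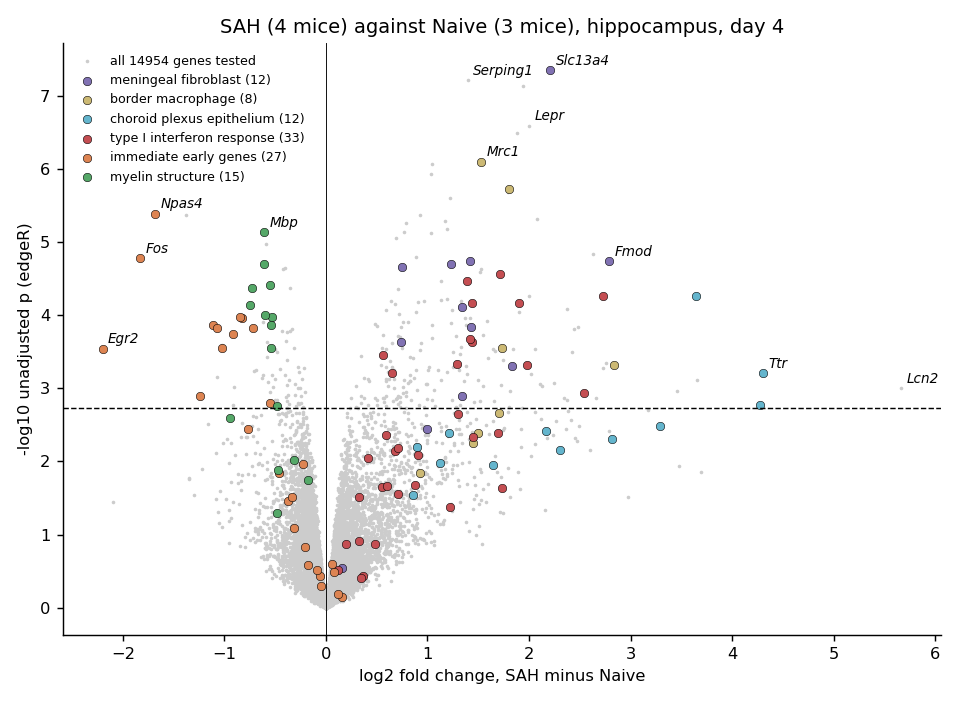
Log2 fold change of SAH over Naive hippocampus (x axis) against -log10 of the unadjusted edgeR p (y axis) for the 14954 tested genes, each a point, with members of 6 lists coloured. The dashed line marks an adjusted p of 0.10; 201 genes lie above it on the right and 81 on the left, and the rises reach further from 0 than the falls.

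The 5 smallest p-values were those of Slc13a4, Serping1, Itih2, Lepr and Lyz2. Slc13a4, a sodium-sulfate cotransporter found in leptomeningeal cells (chromosome 6, 35217953 to 35258126, mm9), stood at 17.4, 18.6, 14.2 and 16.9 CPM in SAH mice 1 to 4 and 3.24, 3.09 and 4.54 CPM in the Naive mice. The 2 groups were far apart and narrow within, and the log2 fold change was 2.21 ± 0.15, adjusted p = 0.000365. Here and below, the value after ± is an approximate standard error, worked back from the fold change and its edgeR result. It was not estimated separately, so it carries no evidence beyond the unadjusted p. Itih2, a heavy chain that is transferred to hyaluronan in the extracellular matrix (chromosome 2, 10016218 to 10052310), stood at 9.28, 7.8, 7.57 and 7.83 CPM in the SAH mice against 1.88, 2.21 and 2.25 CPM in the Naive mice (1.95 ± 0.14, adjusted p = 0.000365). Serping1, the inhibitor of complement C1 (chromosome 2, 84605517 to 84615586), read 17.6, 17.5, 14.7 and 17.7 CPM in SAH mice 1 to 4 and 6.58, 6.33 and 6.37 CPM in the Naive mice (1.40 ± 0.10, adjusted p = 0.000365), with little spread among the Naive mice. Lepr, the leptin receptor, read 5.03, 5.04, 4.49 and 5.59 CPM in the SAH mice against 1.09, 1.34 and 1.36 CPM in the Naive mice, with no SAH mouse near the Naive range (2.00 ± 0.17, adjusted p = 0.00096). Lyz2, the lysozyme of myeloid cells, read 21.7, 14.5, 14.6 and 17.8 CPM in SAH mice 1 to 4 and 4.7, 4.27 and 5.01 CPM in the Naive mice (1.88 ± 0.16, adjusted p = 0.00096). These 5 kept their call whichever mouse was left out. Itih2, Lepr and Lyz2 were picked after their values were seen, as members of no list.

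**Figure D2:**
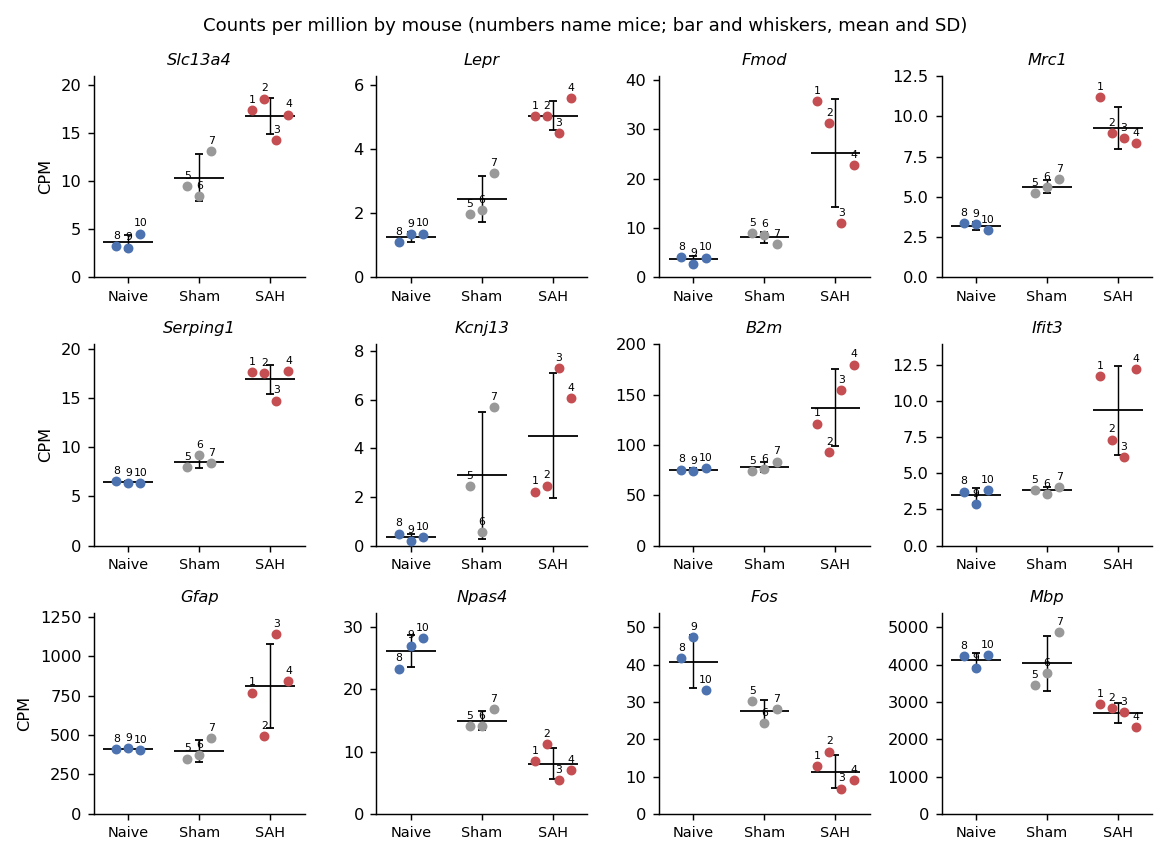
CPM (y axes, from 0) of 12 called genes in each mouse, with 1 numbered point per mouse in the Naive, Sham and SAH groups, a bar at the group mean and whiskers of 1 SD. SAH points lie wholly beyond the Naive points in every panel, and all 3 Sham points lie between the groups for Slc13a4, Lepr, Fmod, Mrc1, Serping1, Npas4 and Fos.

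Genes of meningeal fibroblasts formed the marker list with the most called members. Of its 12 tested markers, 10 rose and none fell, with a median log2 fold change of 1.34. Fmod, fibromodulin, a small proteoglycan that orders collagen fibrils, had the largest rise of the list at 35.8, 31.3, 11 and 22.8 CPM in the SAH mice against 4.1, 2.78 and 3.99 CPM in the Naive mice (2.79 ± 0.37, adjusted p = 0.00987). SAH mouse 3 was the lowest of its group for Fmod and still lay above every Naive mouse. Aldh1a2, which makes retinoic acid in the meninges, read 11.8, 11.1, 7.98 and 8.91 CPM in SAH mice 1 to 4 and 3.76, 2.83 and 4.5 CPM in the Naive mice (1.42 ± 0.19, adjusted p = 0.00987). The amino acid carrier Slc6a20a read 11.3, 15.1, 10 and 15.8 CPM in the SAH mice against 5.68, 5.61 and 5.43 CPM in the Naive mice (1.24 ± 0.17, adjusted p = 0.0101). Lum, lumican, another collagen-binding proteoglycan, rose by 1.34 ± 0.21 and Col1a2, a chain of type I collagen, by 1.43 ± 0.24 on the log2 scale. The organic anion carriers Slc22a6 (1.83 ± 0.36, adjusted p = 0.0525) and Slc22a8 (0.74 ± 0.13, adjusted p = 0.0341), the GABA carrier Slc6a13 (1.34 ± 0.30, adjusted p = 0.0856) and Islr (0.75 ± 0.10, adjusted p = 0.0102) were the other members that rose. Col1a1, the partner chain of Col1a2, read 15.7, 11.8, 5.86 and 11.5 CPM in SAH mice 1 to 4 and 5.98, 5.81 and 5.14 CPM in the Naive mice and missed the threshold (0.99 ± 0.26, adjusted p = 0.139), and Dcn, decorin, overlapped between the groups (0.16 ± 0.14, adjusted p = 0.682).

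The summed level of the 12 meningeal markers was 123.5 to 127.9 CPM in Naive, 162.8 to 275.9 CPM in SAH and 142.6 to 170.2 CPM in Sham mice. SAH mouse 3 was never the highest of the 7 mice for any of the 12. Of the 10 called markers, 5, 6 and 6 kept their call without Naive mouse 8, 9 or 10 and 5 in every such fit (Slc13a4, Aldh1a2, Fmod, Slc6a20a and Islr). In the comparison of Sham with Naive mice, which uses the same 3 Naive mice, the median of the 12 was 0.50 and Slc13a4 was called (9.45, 8.46 and 13.1 CPM in the 3 Sham mice; log2 fold change 1.51, adjusted p = 0.0488). That was the only call among 15134 genes tested there (0.00661%), with 305 genes at an unadjusted p below 0.05 and 2 called by DESeq2. No gene was called in that comparison without Naive mouse 8 or 9 or without Sham mouse 5 or 7. The part that attached meninges had in these rises was not tested.

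Border macrophages, the resident phagocytes of the meninges and perivascular spaces, showed a like pattern. All 8 markers were higher in every SAH mouse than in every Naive mouse, and 4 rose past the threshold, with a median log2 fold change of 1.62. Mrc1, the mannose receptor CD206, read 11.2, 8.94, 8.63 and 8.31 CPM in the SAH mice against 3.39, 3.29 and 2.93 CPM in the Naive mice (1.53 ± 0.14, adjusted p = 0.00183). F13a1, the A chain of coagulation factor XIII, read 5.37, 4.27, 5.4 and 5.99 CPM in SAH mice 1 to 4 and 1.32, 1.8 and 1.44 CPM in the Naive mice (1.80 ± 0.19, adjusted p = 0.00308). Both were called in every fit that left out a mouse. Cd163, the receptor that clears haptoglobin-bound haemoglobin, read 2.18, 1.77, 2.93 and 3.44 CPM in the SAH mice against 0.489, 0.977 and 0.891 CPM in the Naive mice (1.73 ± 0.32, adjusted p = 0.0367), and Siglec1, a sialic acid receptor, 1.26, 0.699, 0.505 and 1.36 CPM in SAH mice 1 to 4 and 0.0376, 0.154 and 0.212 CPM in the Naive mice (2.83 ± 0.56, adjusted p = 0.0514). Both lost their call without SAH mouse 4 and without each of the Naive mice. Ms4a7 (1.71 ± 0.42, adjusted p = 0.109), Pf4 (1.5 ± 0.41, adjusted p = 0.147), Lyve1 (1.45 ± 0.41, adjusted p = 0.166) and Cbr2 (0.93 ± 0.32, adjusted p = 0.253) did not pass. The 8 markers summed to 6.885 to 8.022 CPM in Naive, 19.64 to 25.48 CPM in SAH and 10.73 to 12.8 CPM in Sham mice, so no group overlapped another.

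Of 8 microglial markers only Csf1r, the receptor for colony stimulating factor 1, rose, by 0.35 ± 0.08 (adjusted p = 0.0856), and the median of the 8 was 0.09. The call of Csf1r was lost without SAH mouse 1 or 4 or any 1 Naive mouse. Together the 8 markers summed to 382.1 to 406.7 CPM in Naive, 410.2 to 494.6 CPM in SAH and 398.9 to 429.3 CPM in Sham mice, so the SAH and Naive sums did not overlap. Marker by marker the SAH mice went different ways: SAH mouse 3 was the lowest of the 7 mice in 5 of the 8, with a median log2 ratio to the Naive mean of -0.24, while SAH mice 1 and 4 were the highest in 3 and 5, with medians of 0.17 and 0.27. P2ry12, the purinergic receptor of surveying microglia, read 48.4, 44.3, 35.5 and 47.8 CPM in the SAH mice against 42.1, 41.4 and 46.4 CPM in the Naive mice, with the groups overlapping (0.02 ± 0.10, adjusted p = 0.945), as they did for Tmem119 (0.11 ± 0.13, adjusted p = 0.757). The 6 monocyte markers, most of whose reads were those of Fn1, summed to 49.88 to 75.59 CPM in Naive, 74.7 to 113.2 CPM in SAH and 44.38 to 58.34 CPM in Sham mice, so SAH and Naive overlapped. Those tested, Ccr2 (2.60 ± 0.77, adjusted p = 0.184), S100a4 (0.87 ± 0.28, adjusted p = 0.219) and Fn1 (0.60 ± 0.17, adjusted p = 0.163), did not pass, and 3 others (Ly6c2, Plac8 and Chil3) were too low to test. Ccr2, the receptor that draws monocytes out of blood, read 1.55, 0.883, 0.101 and 0.679 CPM in SAH mice 1 to 4 and 0.15, 0.0514 and 0.17 CPM in the Naive mice, so SAH mouse 3 lay within the Naive range.

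Choroid plexus genes held the largest fold changes among marker lists, and the least even ones. Ttr, transthyretin, the main protein the plexus secretes, read 66.9, 173, 1109 and 769 CPM in the SAH mice against 36.4, 17 and 26.1 CPM in the Naive mice. All 4 SAH mice were above the Naive mice, yet they spread over more than an order of magnitude, and the fit gave 4.31 ± 0.88, adjusted p = 0.0574. Kcnj13, a plexus potassium channel, read 2.22, 2.46, 7.32 and 6.07 CPM in SAH mice 1 to 4 and 0.489, 0.206 and 0.34 CPM in the Naive mice (3.64 ± 0.55, adjusted p = 0.0184), and the bicarbonate carrier Slc4a5 0.532, 2.1, 11.4 and 5.35 CPM in the SAH mice against 0.339, 0.103 and 0.255 CPM in the Naive mice (4.27 ± 1.01, adjusted p = 0.0963). Kcne2, a potassium channel subunit of the same epithelium, was also among the 10 largest rises (3.45 ± 0.77, adjusted p = 0.0761). Col8a1, a collagen of basement membranes, followed the same mice at 2.13, 2.24, 7.27 and 4.84 CPM in SAH mice 1 to 4 and 0.978, 0.823 and 1.02 CPM in the Naive mice (2.11 ± 0.45, adjusted p = 0.0678). Of the 12 markers 3 rose and none fell, with a median of 2.23, and SAH mouse 3 was the highest of the 7 mice in 11.

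The 12 plexus markers summed to 263.9 to 302.1 CPM in the Naive mice, 348.3 to 2072 CPM in the SAH mice and 271.8 to 1525 CPM in the Sham mice. SAH mouse 3 had 2072, SAH mouse 4 had 1493 and Sham mouse 7 had 1525, so high sums occurred in both operated groups. With SAH mice 3 and 4 both left out, a choice made after seeing these sums, 265 genes rose and 119 fell. The log2 fold change of Ttr was then 2.17 and that of Kcnj13 2.70. Both genes are part of the sums behind that choice, so their p-values in that fit are not given. The 10 called meningeal markers, 4 border macrophage markers, 10 myelin genes and 12 immediate early genes all kept their call in that fit, as did 6 of 8 complement genes. In the full fit, no Naive mouse could be left out without losing all 3 plexus calls. The part that attached plexus had in other results was not tested.

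**Figure D3:**
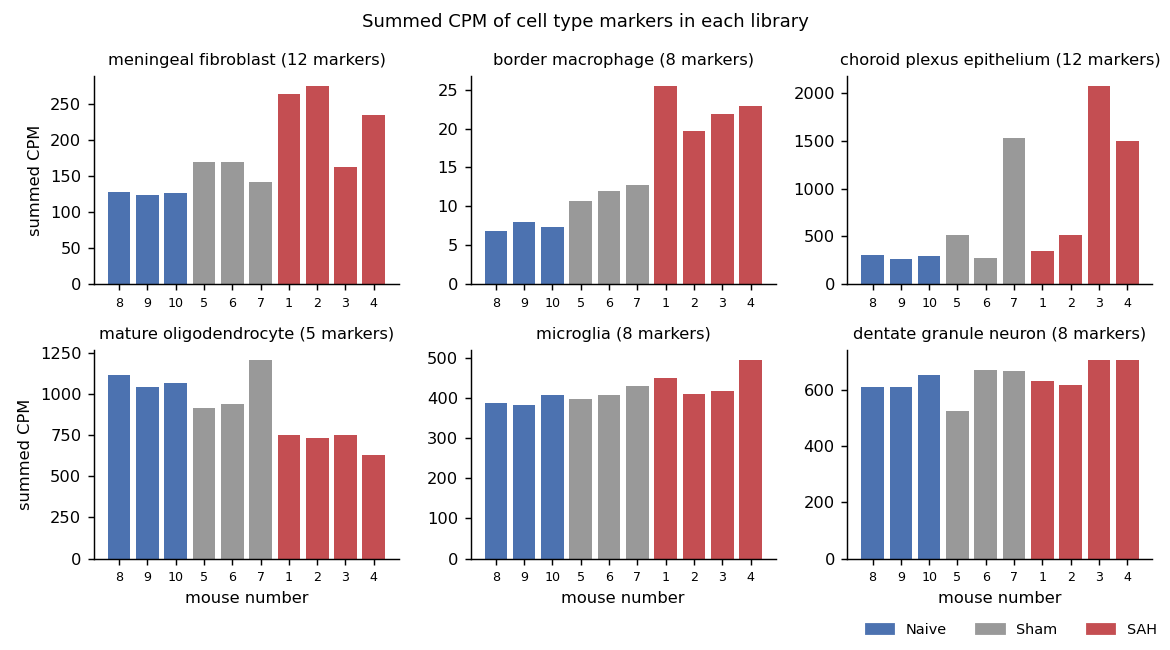
Summed CPM (y axes, from 0) of the markers of 6 cell types in each of the 10 mice, 1 bar per mouse, coloured by group. Meningeal, border macrophage and mature oligodendrocyte sums separate SAH from Naive mice, dentate granule neuron sums do not, and the plexus sum is high in SAH mice 3 and 4 and Sham mouse 7.

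Genes of the extracellular matrix rose next to the meningeal markers, and some are in both lists. Of 30 tested matrix proteins and crosslinking enzymes, 10 rose and none fell, with a median of 0.41. Fbln5, fibulin 5, which helps assemble elastic fibres, read 8.17, 6.11, 7.67 and 7.67 CPM in the SAH mice against 3.08, 3.39 and 3.27 CPM in the Naive mice (1.19 ± 0.14, adjusted p = 0.00529). Vtn, vitronectin, an adhesive plasma and matrix protein, read 78.9, 81.4, 69.1 and 90.7 CPM in SAH mice 1 to 4 and 49.2, 51.5 and 48.4 CPM in the Naive mice (0.69 ± 0.08, adjusted p = 0.006). Igfbp2, which binds insulin-like growth factors, read 47.6, 44.1, 27.4 and 38.5 CPM in the SAH mice against 18.8, 16.9 and 18 CPM in the Naive mice (1.14 ± 0.16, adjusted p = 0.0133). Fbln5, Vtn and Fmod kept their call in every leave-one-out fit, and 4, 3 and 5 of the 10 did so without Naive mouse 8, 9 or 10. Other rises were Bgn, biglycan (0.89 ± 0.14), Ogn, osteoglycin (1.72 ± 0.37), the transglutaminase Tgm2 (0.99 ± 0.21) and the lysyl oxidases Lox (1.93 ± 0.46) and Loxl2 (1.25 ± 0.25), which crosslink collagen. Tnc, tenascin C, was not called (-0.45 ± 0.19, adjusted p = 0.371).

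Of 30 collagen genes, 6 rose and none fell, with a median of 0.29. The fibrillar chains Col1a2 (34.2, 29.2, 14.4 and 23 CPM in SAH mice 1 to 4 and 9.71, 9.56 and 8.87 CPM in the Naive mice) and Col3a1 (14.6, 11.8, 4.8 and 6.95 CPM in the SAH mice against 4.03, 3.19 and 3.14 CPM in the Naive mice) were highest in SAH mouse 1 and lowest in SAH mouse 3, the reverse of Col8a1. Basement membrane chains rose too, with Col18a1 at 0.83 ± 0.18, adjusted p = 0.0633, Col4a5 at 0.67 ± 0.14, adjusted p = 0.0633 and Col4a6 at 0.96 ± 0.23, adjusted p = 0.0989. Calls were few without a Naive mouse: none of the 6 was kept without mouse 8 or 10 and 1 without mouse 9, and 2 were kept without SAH mouse 4. Among 23 proteases and inhibitors, the inhibitors Timp3 (0.55 ± 0.10, adjusted p = 0.0367), Serpinf1 (0.49 ± 0.08, adjusted p = 0.026) and A2m (1.66 ± 0.38, adjusted p = 0.0895) rose and the protease Adamts4, which cleaves proteoglycans and is made by oligodendrocytes, fell from 36.5 to 41.2 CPM in Naive to 11.5 to 23.7 CPM in SAH mice (-1.03 ± 0.19, adjusted p = 0.0362). None of these 4 calls was kept without any 1 Naive mouse, and only that of Serpinf1 without SAH mouse 4. Timp1, an inhibitor induced by injury, read 0.435, 0.221, 3.99 and 0.919 CPM in SAH mice 1 to 4 and 0.0752, 0.154 and 0.127 CPM in the Naive mice and was not called (3.48 ± 1.13, adjusted p = 0.228), with most SAH reads in mouse 3.

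In the transforming growth factor beta family, 3 ligands of the bone morphogenetic protein branch rose. Bmp6 read 8.51, 8.05, 7.27 and 8.75 CPM in the SAH mice against 3.91, 3.39 and 3.18 CPM in the Naive mice (1.22 ± 0.13, adjusted p = 0.00342) and kept its call whichever mouse was left out. Bmp5 (1.36 ± 0.29, adjusted p = 0.0641) and Bmp7 (1.05 ± 0.24, adjusted p = 0.089) were the others. The target genes Id1 (0.66 ± 0.15, adjusted p = 0.0907) and Id3 (0.65 ± 0.13, adjusted p = 0.0525), which block differentiation factors, rose, whereas the inhibitory Smad7 (-0.45 ± 0.09, adjusted p = 0.0537) and the receptor Acvr2a (-0.25 ± 0.06, adjusted p = 0.094) fell. Counting the signal carrier Smad3 (0.31 ± 0.08, adjusted p = 0.0995), 6 of 33 family members rose and 2 fell, with a median of 0.14; apart from Bmp6, no call was kept without Naive mouse 8, 9 or 10. Igf2, insulin-like growth factor 2, which meninges and plexus secrete, read 185, 152, 89 and 112 CPM in SAH mice 1 to 4 and 49.2, 46.4 and 45.2 CPM in the Naive mice (1.52 ± 0.21, adjusted p = 0.0112). It was picked after its values were seen, and it followed SAH mouse 1 rather than SAH mouse 3.

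Complement, the cascade that tags cells and synapses for removal, rose in 8 of 26 tested members, from its first step to its regulators, with none lower and a median of 0.55. Of its terminal genes, Hc, C6, C7, C8a, C8b and C9 had too few reads to test. The terminal gene C8g was tested and not called. Besides Serping1, C2, the protease of the classical convertase, read 2.51, 3.24, 2.02 and 1.8 CPM in the SAH mice against 0.564, 0.257 and 0.297 CPM in the Naive mice (2.63 ± 0.34, adjusted p = 0.00907). Both were called in every leave-one-out fit. C4b, which C1 cleaves to start the classical pathway, read 70.5, 41.6, 126 and 92.9 CPM in SAH mice 1 to 4 and 23.8, 19.8 and 22.4 CPM in the Naive mice (1.91 ± 0.31, adjusted p = 0.0225). SAH mice 3 and 4 were the higher pair for C4b, and reads shared with its near-identical copy C4a were not counted. C1qa, a chain of the recognition molecule, read 57.1, 47.9, 72 and 68.6 CPM in the SAH mice against 40.2, 38.9 and 42.9 CPM in the Naive mice (0.59 ± 0.13, adjusted p = 0.0633), and C1qb (0.50 ± 0.12, adjusted p = 0.089) and C1qc (0.50 ± 0.12, adjusted p = 0.0963) rose by a like amount. C3ar1, the receptor for C3a, rose by 0.99 ± 0.23. C3 itself, the hub of the cascade, read 3.92, 2.43, 7.07 and 2.68 CPM in SAH mice 1 to 4 and 1.58, 1.23 and 1.44 CPM in the Naive mice and was not called (1.47 ± 0.37, adjusted p = 0.121), nor was Cfb, factor B (2.48 ± 0.70, adjusted p = 0.163). Of the 8 calls, 3 stood without Naive mouse 8, 9 or 10, 4 without SAH mouse 4 and 5 without SAH mouse 1.

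Antigen presentation by class I molecules rose in 6 of 17 tested genes, with none lower and a median of 0.73. H2-K1, a classical class I chain, read 33.9, 25.3, 50.1 and 53.4 CPM in the SAH mice against 16.6, 16.4 and 14.1 CPM in the Naive mice (1.38 ± 0.23, adjusted p = 0.026). B2m, beta-2 microglobulin, the light chain of every class I molecule and among the 5 most expressed genes that rose, read 121, 93, 155 and 180.0 CPM in SAH mice 1 to 4 and 75.5, 74.3 and 76.8 CPM in the Naive mice (0.86 ± 0.18, adjusted p = 0.0633). For both, SAH mouse 2 was the lowest of its group and lay closest to the Naive mice. H2-D1 (1.38 ± 0.28, adjusted p = 0.0525), H2-Q4 (1.59 ± 0.31, adjusted p = 0.0443), H2-T23 (0.88 ± 0.18, adjusted p = 0.0547) and the peptide editor Tapbp (0.38 ± 0.08, adjusted p = 0.0633) made up the 6. The class I genes share long stretches of sequence, so their counts are uncertain. All 17 had positive fold changes and 16 were separate between the groups, against 7.02% of all tested genes, but no call survived without a Naive mouse and 1 survived without SAH mouse 4. In Sham mice H2-K1 read 15.9, 15.4 and 17.2 CPM and B2m 74.2, 75.9 and 83.5 CPM, near the Naive values.

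Class II molecules are carried by border macrophages and dendritic cells. Of 9 tested genes of this pathway 5 rose and none fell, with a median of 1.39. H2-Aa read 2.66, 4.23, 1.26 and 3.92 CPM in the SAH mice against 0.602, 0.411 and 0.594 CPM in the Naive mice (2.48 ± 0.42, adjusted p = 0.0261) and H2-Ab1 2.08, 2.21, 1.16 and 2.04 CPM in SAH mice 1 to 4 and 0.226, 0.257 and 0.594 CPM in the Naive mice (2.38 ± 0.38, adjusted p = 0.0217), the 2 chains of 1 receptor. Their invariant chain Cd74 read 5.9, 5.44, 2.07 and 5.39 CPM in the SAH mice against 1.35, 1.03 and 1.53 CPM in the Naive mice (1.85 ± 0.34, adjusted p = 0.0367). SAH mouse 3 was the lowest of its group for all 3 and still above the Naive mice. H2-Eb1 (1.81 ± 0.40, adjusted p = 0.0765) and the protease Ctss (0.83 ± 0.17, adjusted p = 0.0587) rose too. Without Naive mouse 8 or 9 none of the 5 was called, without mouse 10 only 1 was, and without SAH mouse 4 there were 2.

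Genes induced by type I interferon, the antiviral cytokines, all had positive fold changes, and 12 of 33 rose, with a median of 0.88. The promoters of 4 called members carried the core of the interferon-stimulated response element, the letters GAAANNGAAA to which interferon-activated factors bind, and windows of 100 bases around them are shown because this element is what the group is known to share. They come from RefSeq promoters on GRCm38.p6, a later build than the files' mm9, and both strands of the 250 bases before each start were searched. Capitals mark the matches, which run together in Bst2 and Irgm1 and in some promoters lie on the opposite strand, as the reverse complement.
Bst2, chr8:71537542-71537641, minus strand: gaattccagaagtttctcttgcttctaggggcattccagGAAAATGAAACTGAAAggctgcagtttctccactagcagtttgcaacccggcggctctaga
Ifit1, chr19:34640759-34640858, plus strand: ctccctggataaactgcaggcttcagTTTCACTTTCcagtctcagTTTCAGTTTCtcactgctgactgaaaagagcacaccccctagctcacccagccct
Ifit3, chr19:34583362-34583461, plus strand: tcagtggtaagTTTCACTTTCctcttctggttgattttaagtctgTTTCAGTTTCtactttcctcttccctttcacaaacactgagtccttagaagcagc
Rsad2, chr12:26456518-26456617, minus strand: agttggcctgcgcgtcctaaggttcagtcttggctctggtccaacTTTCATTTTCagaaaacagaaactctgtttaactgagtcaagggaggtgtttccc
Igtp, chr11:58199456-58199555, plus strand: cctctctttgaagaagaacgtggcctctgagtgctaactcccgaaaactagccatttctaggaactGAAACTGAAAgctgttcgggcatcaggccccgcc
Irgm1, chr11:48871421-48871520, minus strand: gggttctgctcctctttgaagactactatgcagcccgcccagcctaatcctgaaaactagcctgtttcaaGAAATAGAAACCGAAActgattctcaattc
B2m, chr2:122147503-122147602, plus strand: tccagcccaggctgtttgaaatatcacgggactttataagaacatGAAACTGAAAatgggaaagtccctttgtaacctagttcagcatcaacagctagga
H2-T23, chr17:36032771-36032870, minus strand: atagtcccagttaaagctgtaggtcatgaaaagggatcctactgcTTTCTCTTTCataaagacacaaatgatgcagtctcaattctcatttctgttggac
Igtp and Irgm1, interferon gamma-induced GTPases, and the class I genes B2m and H2-T23 carried it as well. Promoters were in the table for 11305 of the 14954 tested genes, and 345 of those (3.05%) held a match. Among called genes it was in 17 of the 144 higher ones with a promoter (11.8%) and 2 of the 62 lower ones (3.23%). In the type I list it was in 7 of 20 (35%), and in the interferon gamma GTPase list in 7 of 8 (87.5%), against 2 of 14 class I genes (14.3%), 1 of 7 class II genes (14.3%) and 3 of 19 immediate early genes (15.8%), a list whose called members fell. These are matches of letters, and binding was not measured.

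Bst2, tetherin, which holds budding viruses at the cell surface, read 5.9, 3.64, 5.65 and 7.23 CPM in SAH mice 1 to 4 and 1.84, 1.49 and 1.74 CPM in the Naive mice (1.72 ± 0.24, adjusted p = 0.0116) and was the one member called in every leave-one-out fit. Ifitm3, which blocks viral entry, read 18.7, 10.8, 16.8 and 19.5 CPM in the SAH mice against 5.91, 7.2 and 5.82 CPM in the Naive mice (1.39 ± 0.20, adjusted p = 0.0133). Irf7, the factor that amplifies interferon production, read 4.88, 3.27, 5.65 and 8.11 CPM in SAH mice 1 to 4 and 1.5, 1.39 and 1.49 CPM in the Naive mice (1.90 ± 0.30, adjusted p = 0.0193). For Ifitm3, Irf7 and Bst2 SAH mouse 2 was the lowest of its group and clear of the Naive mice. SAH mouse 4 stood apart at the other end, as the highest of the 7 mice in 28 of the 33 type I genes, 9 of the 12 interferon gamma GTPases and 10 of the 17 class I genes. Ifit1, which binds foreign RNA caps, read 6.91, 4.38, 3.64 and 7.31 CPM in the SAH mice against 2.11, 1.85 and 2.17 CPM in the Naive mice (1.44 ± 0.26, adjusted p = 0.0341). Ifit3, which has a near-identical copy, read 11.7, 7.32, 6.11 and 12.2 CPM in SAH mice 1 to 4 and 3.72, 2.88 and 3.82 CPM in the Naive mice (1.42 ± 0.25, adjusted p = 0.0328). Both were highest in SAH mice 1 and 4. Lgals3bp (1.44 ± 0.22, adjusted p = 0.0193), Usp18 (1.98 ± 0.39, adjusted p = 0.052), Rsad2 (1.29 ± 0.25, adjusted p = 0.0514), the RNA sensor Ddx58 (0.66 ± 0.13, adjusted p = 0.0576) and Ifi204 (2.54 ± 0.57, adjusted p = 0.0803) rose. Ifi27 (0.56 ± 0.11, adjusted p = 0.0419) and Ifi27l2a (2.72 ± 0.41, adjusted p = 0.0184) rose too, and as the 2 genes overlap, pairs on both were not counted. Isg15 (1.45 ± 0.40, adjusted p = 0.153), Mx1 (1.70 ± 0.46, adjusted p = 0.147) and Oasl2 (1.30 ± 0.32, adjusted p = 0.109) missed the threshold. The Sham mice read 2.11, 2.02 and 2.09 CPM for Bst2 and 1.49, 0.919 and 0.885 CPM for Irf7, and the Sham against Naive median of the list was 0.12. Without Naive mouse 8, 9 or 10, 1, 2 and 1 of the 12 stayed called, and 9 did without SAH mouse 4.

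Of 12 interferon gamma-induced GTPases, which attack vacuoles of intracellular microbes, 3 rose and none fell, with a median of 0.83. Gbp6 read 2.27, 1.58, 1.36 and 2.32 CPM in the SAH mice against 0.828, 0.72 and 0.722 CPM in the Naive mice (1.31 ± 0.27, adjusted p = 0.0547), Igtp 4.21, 3.38, 4.29 and 4.68 CPM in SAH mice 1 to 4 and 2.37, 1.95 and 2.63 CPM in the Naive mice (0.83 ± 0.18, adjusted p = 0.0633) and Irgm1 11.5, 9.45, 15.3 and 16.2 CPM in the SAH mice against 7.41, 7.25 and 8.07 CPM in the Naive mice (0.79 ± 0.18, adjusted p = 0.0856). None of these calls was kept without SAH mouse 4 or without any 1 of the Naive mice. Of 16 chemokines and receptors only Ccl5, which attracts T cells and monocytes, rose (0.919, 0.368, 1.97 and 1.4 CPM in SAH mice 1 to 4 and 0.0752, 0 and 0.17 CPM in the Naive mice; 3.65 ± 0.77, adjusted p = 0.0633). It rested on 103 read pairs in the 4 SAH mice against 6 in the 3 Naive mice, a depth-corrected ratio of 12.9 with an exact 95% interval of 5.72 to 35.9 that covers counting error only. Of the 4 leave-one-out fits that could test it, only that without SAH mouse 2 kept the call. Cxcl10, a classical interferon-induced chemokine, was not called (1.31 ± 0.48, adjusted p = 0.292). The chemokine list held 30 genes, of which 16 were tested. Ccl2, Ccl3, Ccl4, Cxcl1, Cxcl9 and Cxcr3 were among those with too few reads to test.

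Reactive astrocyte genes rose in 6 of 25 tested members, with none lower and a median of 0.72. Gfap, the intermediate filament of astrocytes, read 768, 495, 1142 and 842 CPM in the SAH mice against 412, 417 and 405 CPM in the Naive mice (0.98 ± 0.21, adjusted p = 0.0678), and its partner Vim 69.8, 50.9, 117 and 78.8 CPM in SAH mice 1 to 4 and 31.1, 34.5 and 32.3 CPM in the Naive mice (1.28 ± 0.23, adjusted p = 0.0308). SAH mouse 3 was the highest for both and SAH mouse 2 the lowest. Over the list, SAH mouse 3 was the highest of the 7 mice in 16 of the 25 genes. The median log2 ratios to the Naive mean were 0.36, 0.22, 0.68 and 0.78 in SAH mice 1 to 4. Cp, ceruloplasmin, an iron-oxidising copper protein of astrocytes, was more even at 24.9, 27, 29.7 and 32.8 CPM in the SAH mice against 13.4, 14.6 and 14.1 CPM in the Naive mice (1.03 ± 0.10, adjusted p = 0.00217). Cp and Fbln5 kept their call in every leave-one-out fit, while Gfap, Vim, Ggta1 (0.71 ± 0.12, adjusted p = 0.0308) and Lcn2 lost it without any 1 Naive mouse, and Gfap and Lcn2 without SAH mouse 4 as well. Lcn2, lipocalin 2, a secreted iron-siderophore carrier, had the largest fitted change of any gene, from 2 read pairs in the 3 Naive mice to 150 in the 4 SAH mice (1.02, 0.625, 4.59 and 0.839 CPM in SAH mice 1 to 4 and 0.0752, 0 and 0 CPM in the Naive mice). The ratio was 56.3 with an exact 95% interval of 15.3 to 469 that covers counting error only and not the spread between mice (adjusted p = 0.0718), and 91 of the 150 pairs came from SAH mouse 3. Homeostatic astrocyte genes did not follow: none of 17 was called by edgeR, and the median was 0.04. Slc1a2, the main glutamate transporter, read 3625, 3310.2, 3704 and 3450.3 CPM in the SAH mice against 3599.9, 3588 and 3794 CPM in the Naive mice (-0.05 ± 0.05, adjusted p = 0.683).

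Vessel genes rose in part. Of 13 endothelial activation genes 4 rose and none fell, with a median of 0.54. Vwf, von Willebrand factor, which tethers platelets, read 16.6, 17.1, 27.1 and 31.6 CPM in SAH mice 1 to 4 and 6.28, 10.5 and 6.54 CPM in the Naive mice (1.59 ± 0.26, adjusted p = 0.0256), and Thbd, thrombomodulin, which restrains clotting, 14, 11.6, 7.27 and 11.3 CPM in the SAH mice against 3.8, 4.63 and 4.8 CPM in the Naive mice (1.33 ± 0.21, adjusted p = 0.0193). Vwf was highest in SAH mice 3 and 4 and Thbd in SAH mouse 1. Over the lists SAH mouse 4 stood apart, as the highest of the 7 mice in 8 of the 13 activation genes, 5 of 5 endothelial markers and 7 of 8 mural markers. Angpt2 (1.49 ± 0.32, adjusted p = 0.0633) and the leukocyte adhesion molecule Icam1 (0.79 ± 0.19, adjusted p = 0.0993) rose as well. The contractile genes Acta2 (16, 16.7, 13.1 and 25.2 CPM in SAH mice 1 to 4 and 9.78, 10.5 and 8.45 CPM in the Naive mice; 0.90 ± 0.20, adjusted p = 0.0761) and Tagln (1.05 ± 0.19, adjusted p = 0.0312) rose among 8 mural cell markers, while Pdgfrb, the pericyte receptor, did not pass (0.18 ± 0.09, adjusted p = 0.453). Cdh5, the cadherin of endothelial junctions, rose (0.81 ± 0.17, adjusted p = 0.0667). The summed endothelial markers ranged from 71.03 to 101.3 CPM in Naive and 85.53 to 175.4 CPM in SAH mice, so they overlapped, while the mural sums did not (87.09 to 105.4 and 109.4 to 161.7 CPM). None of 14 blood-brain barrier genes was called by edgeR (median 0.21). Without Naive mouse 8, 9 or 10, 0, 1 and 0 of the 4 activation calls stood, and 2 did without SAH mouse 4. The calls of Acta2, Tagln and Cdh5 were lost without any 1 Naive mouse, and that of Cdh5 also without SAH mouse 4.

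Of 17 tested genes that handle heme and iron, the breakdown products of blood, Cp and Cd163 rose and none fell, with a median of 0.06. Cp is also counted above among reactive astrocyte genes and Cd163 among border macrophage markers. Every SAH mouse lay above every Naive mouse in 5 of the 17, against 7.02% of all tested genes. The call of Cd163 was lost without SAH mouse 4 or any 1 Naive mouse. Hmox1, heme oxygenase 1, which breaks heme open, read 8.36, 6.84, 13.7 and 8.99 CPM in the SAH mice against 5.23, 5.25 and 5.94 CPM in the Naive mice and was not called (0.78 ± 0.21, adjusted p = 0.148), though every SAH mouse lay above the Naive mice. The ferritin chains Ftl1 (0.18 ± 0.05, adjusted p = 0.192) and Fth1 (0.17 ± 0.07, adjusted p = 0.36) did not pass. None of 16 hypoxia response genes was called by edgeR (median 0.06), with no gene separate between the groups in either direction.

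SAH mouse 3 stood apart in genes that glucocorticoid hormones switch on. It was the highest of the 7 mice in 18 of 18 such genes, and its median log2 ratio to the Naive mean was 1.18, against -0.12, -0.01 and -0.02 in SAH mice 1, 2 and 4. Plin4, a lipid droplet protein, read 0.87, 0.993, 24.5 and 3.56 CPM in SAH mice 1 to 4 and 0.489, 0.566 and 0.637 CPM in the Naive mice (3.69 ± 1.24, adjusted p = 0.25). Cdkn1a, the cell cycle inhibitor p21, read 8.07, 8.61, 67.5 and 8.95 CPM in the SAH mice against 8.46, 11.2 and 6.54 CPM in the Naive mice (1.41 ± 0.75, adjusted p = 0.481). Fkbp5, a chaperone that dampens the glucocorticoid receptor, read 59.5, 55.1, 146 and 77.8 CPM in SAH mice 1 to 4 and 57.5, 58.9 and 56.2 CPM in the Naive mice (0.55 ± 0.29, adjusted p = 0.467). For Plin4 all 4 SAH mice lay above the Naive range, SAH mice 1 and 2 by the least. For Cdkn1a and Fkbp5, SAH mice 1 and 2 lay in or close to the Naive range, and SAH mouse 4 lay above it for Fkbp5. Only Lcn2 of the 18 was called. Of the 282 calls 276 were kept without SAH mouse 3, and 295 genes rose and 154 fell in that fit.

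Neuronal immediate early genes, which report recent firing, made up 7 of the 10 largest falls. Of 27 tested, 12 fell and none rose, with a median of -0.46, and among the 13 transcription factors 9 fell, with a median of -0.91. Npas4, a factor induced by calcium entry (chromosome 19, 4984355 to 4989971), read 8.51, 11.2, 5.45 and 7.07 CPM in the SAH mice against 23.3, 27 and 28.3 CPM in the Naive mice (-1.69 ± 0.19, adjusted p = 0.00462). Fos (chromosome 12, 86814851 to 86818219) read 12.8, 16.7, 6.77 and 9.11 CPM in SAH mice 1 to 4 and 41.6, 47.4 and 33.2 CPM in the Naive mice (-1.83 ± 0.24, adjusted p = 0.00963). For both, the highest SAH mouse was well below the lowest Naive mouse. Egr2, a zinc finger factor, read 2.13, 3.35, 0.404 and 1.76 CPM in the SAH mice against 9.33, 11.4 and 6.45 CPM in the Naive mice (-2.20 ± 0.41, adjusted p = 0.0367), Arc, an effector at synapses, 149.6, 147, 54.2 and 115 CPM in SAH mice 1 to 4 and 289, 328 and 209.9 CPM in the Naive mice (-1.24 ± 0.28, adjusted p = 0.0856), and Egr1 132, 142, 73.4 and 114 CPM in the SAH mice against 239, 271 and 195 CPM in the Naive mice (-1.02 ± 0.19, adjusted p = 0.0367). SAH mouse 3 was the lowest in all of these. Fosb (-1.12 ± 0.19, adjusted p = 0.026), Junb (-0.83 ± 0.14, adjusted p = 0.0241), Egr4 (-0.91 ± 0.16, adjusted p = 0.0296), Ier2 (-1.07 ± 0.18, adjusted p = 0.0266), Nr4a2 (-0.55 ± 0.13, adjusted p = 0.0935), the phosphatase Dusp1 (-0.84 ± 0.14, adjusted p = 0.0241) and the antiproliferative Btg2 (-0.72 ± 0.12, adjusted p = 0.0266) completed the 12.

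The other 15 activity genes missed the threshold, and 23 of the 27 fold changes were negative. Bdnf, a growth factor released by active neurons (-0.18 ± 0.15, adjusted p = 0.664), Nptx2 (-0.09 ± 0.08, adjusted p = 0.7), Egr3 (-0.06 ± 0.06, adjusted p = 0.736) and Jun (-0.20 ± 0.13, adjusted p = 0.56) were not called, and Nr4a1 read 82.2, 81.2, 54.5 and 47.6 CPM in SAH mice 1 to 4 and 124, 133 and 84.1 CPM in the Naive mice (-0.77 ± 0.21, adjusted p = 0.139). The Sham mice read 14.1, 14.1 and 16.8 CPM for Npas4 and 30.1, 24.2 and 28 CPM for Fos, between the other groups, and the Sham against Naive median of the 27 was -0.17. Naive mouse 9 was the highest of the 7 mice in 17 of the 27. Calls kept without Naive mouse 8, 9 or 10 numbered 3, 3 and 7 of the 12, and 8 without SAH mouse 4, while Npas4, Fos and Btg2 were called in every fit.

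The promoters of these genes are known for serum response and cyclic AMP response elements, and 3 members with a full match within 250 bases of the start are shown, with the match in capitals.
Egr2, chr10:67537752-67537851, plus strand, serum response element: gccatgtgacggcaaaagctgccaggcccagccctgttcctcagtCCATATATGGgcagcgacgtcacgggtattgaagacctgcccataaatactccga
Btg2, chr1:134079268-134079367, minus strand, cyclic AMP response element: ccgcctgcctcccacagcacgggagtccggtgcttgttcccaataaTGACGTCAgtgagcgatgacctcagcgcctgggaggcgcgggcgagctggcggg
Dusp1, chr17:26508562-26508661, minus strand, cyclic AMP response element: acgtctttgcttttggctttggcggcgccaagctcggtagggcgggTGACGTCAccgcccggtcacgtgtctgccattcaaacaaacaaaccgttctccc
Of the 19 immediate early genes with a promoter in the table, 1 held the serum response element and 2 the cyclic AMP response element (the letters TGACGTCA). Over all tested genes these shares were 160 (1.42%) and 342 (3.03%) of 11305 promoters, among genes called lower 2 (3.23%) and 4 (6.45%) of 62, and among genes called higher 5 (3.47%) and 1 (0.694%) of 144. No match says only that these letters are not in this window.

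Myelin genes fell together. Of 15 tested structural genes 10 fell, none rose and the median was -0.55. Mbp, myelin basic protein, read 2940.0, 2829.8, 2727 and 2324 CPM in the SAH mice against 4239, 3905 and 4250.0 CPM in the Naive mice (-0.61 ± 0.07, adjusted p = 0.00529). It was among the most expressed genes that fell, and it kept its call in every leave-one-out fit. Mag, an adhesion molecule facing the axon, read 176, 187, 138 and 137 CPM in SAH mice 1 to 4 and 279, 265 and 249 CPM in the Naive mice (-0.73 ± 0.11, adjusted p = 0.0156), and Mog, at the outer surface, 63.9, 66.1, 49.4 and 46.1 CPM in the SAH mice against 98.2, 91.3 and 95.4 CPM in the Naive mice (-0.75 ± 0.12, adjusted p = 0.0199). SAH mice 3 and 4 were the lower pair for these 3 genes. Cldn11 (-0.55 ± 0.08, adjusted p = 0.0148), Cnp (-0.60 ± 0.10, adjusted p = 0.0234), Mal (-0.53 ± 0.09, adjusted p = 0.0241), Tspan2 (-0.55 ± 0.09, adjusted p = 0.026), Mobp (-0.54 ± 0.10, adjusted p = 0.0367) and Pllp (-0.48 ± 0.11, adjusted p = 0.0964) also fell. SAH mouse 4 was the lowest of the 7 mice in 10 of the 15 genes and SAH mouse 3 in the other 5. In Sham mice Mbp read 3453, 3779 and 4872 CPM, with 2 mice below and 1 above the Naive range, and the Sham against Naive median was -0.05. Without Naive mouse 8, 9 or 10, 2, 4 and 4 of the 10 calls stood, and with SAH mice 3 and 4 left out all 10 did.

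**Figure D4:**
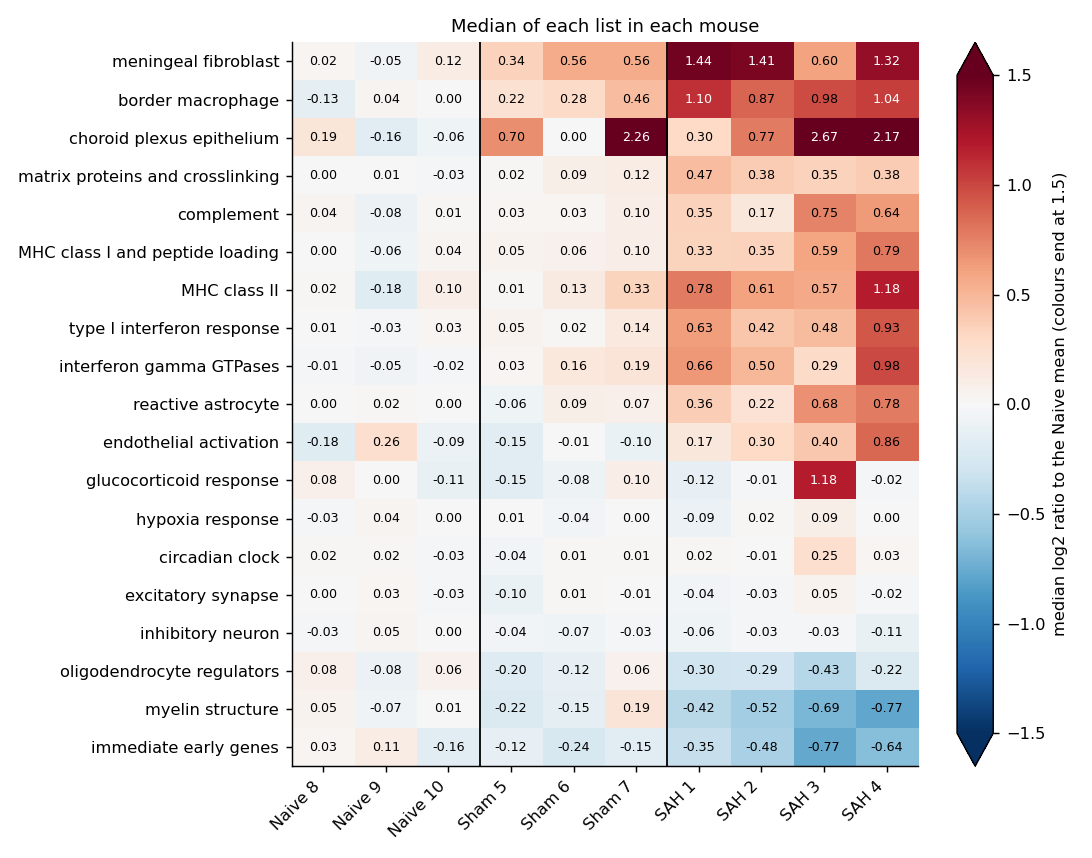
Median log2 ratio to the Naive mean (colour and printed value, colours ending at 1.5) of the tested members of 19 gene and marker lists (rows) in each of the 10 mice (columns). Myelin and immediate early rows are negative in all 4 SAH mice, meningeal and border macrophage rows positive, and the glucocorticoid row is high in SAH mouse 3 with a median of 1.18.

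The fall reached enzymes of myelin lipid and the oligodendrocyte connexin Gjc3 (-0.59 ± 0.07, adjusted p = 0.00694), which was called in each of the 7 fits that left out 1 mouse. Fa2h, which makes hydroxylated sphingolipids of myelin, read 42.4, 41.7, 30.2 and 41.4 CPM in SAH mice 1 to 4 and 59.6, 58.1 and 57.9 CPM in the Naive mice (-0.58 ± 0.11, adjusted p = 0.0341), and Elovl1 (-0.50 ± 0.09, adjusted p = 0.0367) and Cers2 (-0.27 ± 0.06, adjusted p = 0.0525), which make very long chain lipids, fell too. The other 24 of 27 lipid and sterol genes were not called, with no sterol enzyme among those that fell. SAH mouse 3 was the lowest of the 7 mice in 19 of the 27. Its median log2 ratio to the Naive mean was -0.29, against -0.05, -0.08 and -0.13 in SAH mice 1, 2 and 4. Of 11 precursor genes, Bcas1 (-0.39 ± 0.07, adjusted p = 0.0339) and Enpp6 (-0.69 ± 0.14, adjusted p = 0.0546), which mark cells starting to myelinate, fell, whereas the precursor receptor Pdgfra read 76.6, 78.4, 89.8 and 61.2 CPM in the SAH mice against 76.1, 74.2 and 78.2 CPM in the Naive mice (0.01 ± 0.11, adjusted p = 0.985). Without Naive mouse 8 or 9 none of these 5 lipid and precursor calls stood, and without mouse 10 only that of Elovl1 did. None of the 9 lineage transcription factors was called by edgeR, with all 9 fold changes negative and a median of -0.31. Among the factors, which set the lineage, Olig2 had -0.28 ± 0.10, adjusted p = 0.271 and Sox10 -0.42 ± 0.18, adjusted p = 0.363. The 5 mature oligodendrocyte markers summed to 1041 to 1117 CPM in Naive, 629.2 to 750.6 CPM in SAH and 915.6 to 1205 CPM in Sham mice.

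Synapse and neuronal identity genes were mostly not called. None of 19 excitatory synapse genes (median -0.03) and none of 19 inhibitory neuron genes (median -0.05) was called by edgeR, nor was any of 8 dentate granule neuron markers. Of 9 CA pyramidal neuron markers Spink8 rose (16.3, 17.7, 22.1 and 23.4 CPM in SAH mice 1 to 4 and 13.3, 12.2 and 13.4 CPM in the Naive mice; 0.62 ± 0.13, adjusted p = 0.0633) and none fell, and that call was lost without SAH mouse 4 or any 1 Naive mouse. The Sham mice read 12.3, 17.4 and 18.6 CPM for Spink8. Slc17a7, the vesicular glutamate transporter, read 1471, 1449.6, 1466 and 1422 CPM in the SAH mice against 1441, 1440.1 and 1426 CPM in the Naive mice (0.02 ± 0.04, adjusted p = 0.86), and Gad1, which makes GABA, 354, 336, 389.8 and 357 CPM in SAH mice 1 to 4 and 336, 364 and 333 CPM in the Naive mice (0.06 ± 0.06, adjusted p = 0.695). Tubb4a, a tubulin of neurons and oligodendrocytes, fell from 833, 897 and 832 CPM in Naive mice to 739, 733, 748 and 713 CPM in SAH mice (-0.22 ± 0.04, adjusted p = 0.0536). Of 23 neurogenesis and cell cycle genes, Sox11, a factor of immature neurons, fell (18.8, 16.8, 13.1 and 15.7 CPM in the SAH mice against 23.9, 23.6 and 22.4 CPM in the Naive mice; -0.53 ± 0.11, adjusted p = 0.0587), and Dcx, doublecortin of migrating neurons, read 29.5, 28.6, 22.6 and 21.1 CPM in SAH mice 1 to 4 and 37.5, 33.8 and 35.1 CPM in the Naive mice and did not pass (-0.48 ± 0.12, adjusted p = 0.109). The calls of Tubb4a and Sox11 were lost without SAH mouse 4 or any 1 Naive mouse. No circadian clock gene of 18 and no chaperone of 21 was called by edgeR, with medians of 0.06 and 0.10. SAH mouse 3 was the highest of the 7 mice in 10 of the clock genes and SAH mouse 4 in 14 of the chaperones. A missed threshold does not show that the groups were alike.

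**Figure D5:**
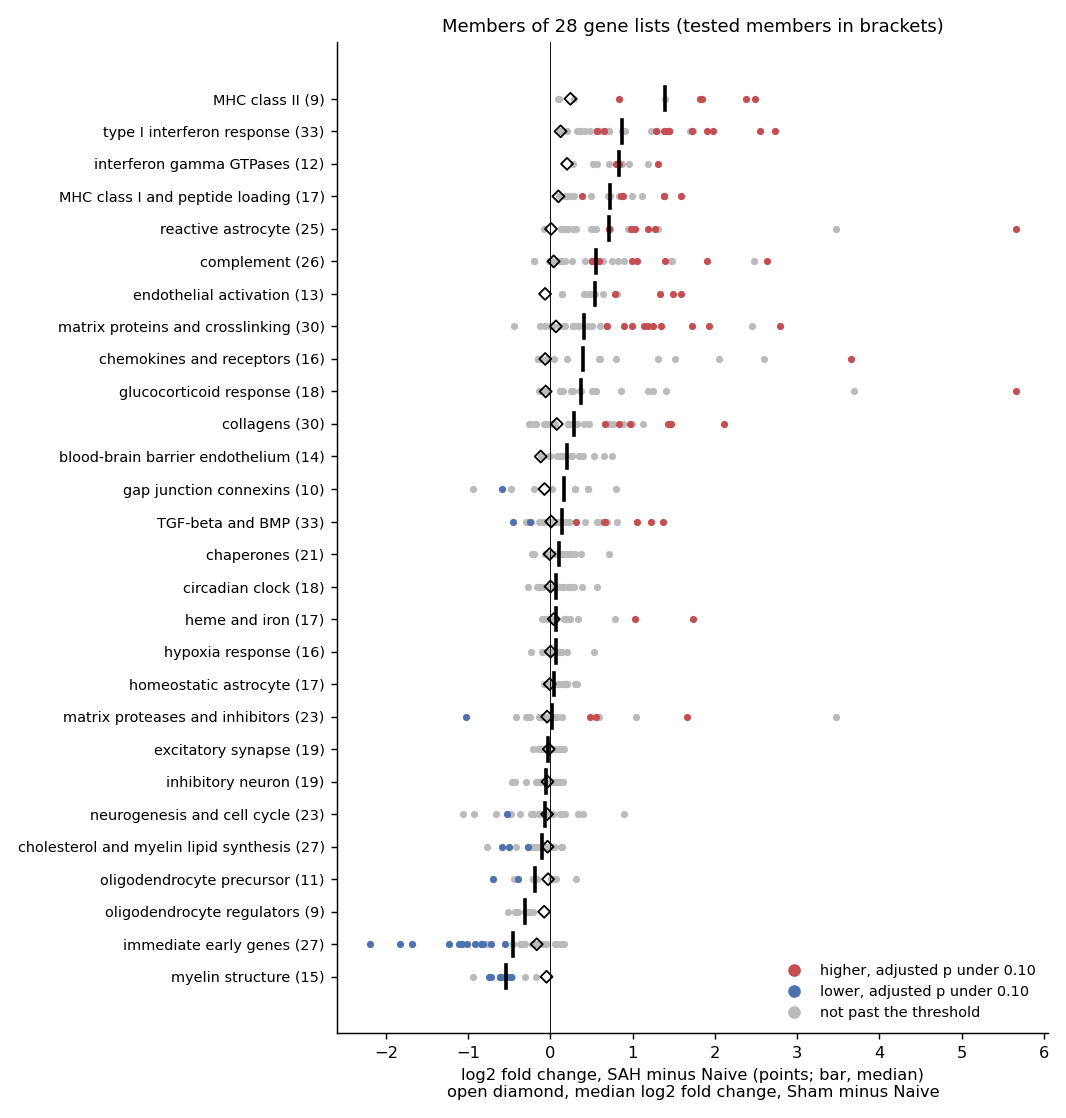
Log2 fold change of SAH over Naive mice (x axis) of the tested members of the 28 gene lists (rows), each a point coloured by its call, with a bar at the list's median and an open diamond at its Sham over Naive median. Class II, interferon, class I and reactive astrocyte lists lie to the right, immediate early and myelin lists to the left, and synapse, clock and hypoxia lists near 0.

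Among the most expressed genes that rose, Ptgds, which makes prostaglandin D2 and is abundant in meninges, plexus and oligodendrocytes, read 559, 589.8, 438 and 437 CPM in the SAH mice against 230.5, 169.6 and 294 CPM in the Naive mice (1.13 ± 0.17, adjusted p = 0.0193), with 418, 465 and 378 CPM in the Sham mice. The ribosomal protein gene Rps12 differed by little, 105, 102, 104 and 103 CPM in SAH mice 1 to 4 and 90.5, 80.2 and 91.2 CPM in the Naive mice (0.25 ± 0.06, adjusted p = 0.0873). Il13ra2, a decoy receptor for interleukin 13, was among the 10 largest rises at low level (0.822, 1.03, 0.555 and 0.4 CPM in the SAH mice against 0.15, 0.103 and 0.0425 CPM in the Naive mice; 2.75 ± 0.54, adjusted p = 0.0489), as was AI607873 (2.73 ± 0.55, adjusted p = 0.0533). Rnf122, a ubiquitin ligase, read 7.01, 5.77, 2.88 and 4.64 CPM in SAH mice 1 to 4 and 10.8, 10.2 and 11.1 CPM in the Naive mice (-1.07 ± 0.22, adjusted p = 0.0622) and the transcript 9630013A20Rik 2.47, 2.8, 1.92 and 2.48 CPM in the SAH mice against 7, 5.97 and 5.99 CPM in the Naive mice (-1.38 ± 0.16, adjusted p = 0.00462), both among the 10 largest falls.

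The 4 SAH mice were not alike in extent. Among the 201 genes that rose, SAH mouse 4 was the highest in 74, SAH mouse 3 in 60, SAH mouse 1 in 54 and SAH mouse 2 in 13, and SAH mouse 2 was the lowest in 84. Among the 81 that fell, SAH mouse 3 was the lowest in 47 and SAH mouse 4 in 28. Meningeal markers were highest in SAH mouse 1 for 6 of 12 genes, while plexus, glucocorticoid and Lcn2 reads peaked in SAH mouse 3.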

How the data were processed

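Total RNA of the bilateral hippocampus was sequenced in pairs, and per the labels and the study's methods the authors aligned reads to mm9 with STAR (default settings) and counted pairs per UCSC gene name with featureCounts 1.6.2, reverse-stranded. The deposited values used here are these raw counts, 19743388 to 26866167 per mouse, so low genes carry the larger counting error. From them CPM were computed, and genes were tested with edgeR 4.0.16 in R 4.3.3 (quasi-likelihood, TMM scaling, filterByExpr with a minimum count of 10 and total of 15) on the 4 SAH and 3 Naive mice alone. Benjamini-Hochberg adjusted p-values were read at 0.10, the study's level. Sham against Naive came from a fit of all 10 mice. DESeq2 1.42.0, other scalings and filters, and leaving out each mouse were the alternatives. Promoter letters were searched in the RefSeq table of GRCm38.p6. The edgeR step was tested on simulated data.

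The contrast, the 28 gene lists and the 16 marker lists were chosen with earlier results of these data known, so list counts are descriptions. Named were the 10 largest rises and falls and the 5 highest levels in each direction among called genes with no overlap between groups, and of each list up to 4 called and 2 uncalled members with the smallest p. Other list members and genes were added to complete counts, and they were picked after their values were seen. Some list members enter the counts and medians of their lists and are not reported here one by one. No columns of the authors' own comparisons were used. No 2 libraries agreed within sampling noise.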

Additional observations from a re-analysis of the deposited data

Results flagged for a closer look

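Among the 168 named genes, 14 had 1 SAH mouse whose gap to its nearest neighbour took up more of the range of the 4 SAH mice than Dixon's 95% critical value allows, where chance alone gives about 5% of genes. Some of the 168 were picked after their values were seen, so their number cannot be weighed against that 5%. SAH mouse 3 was the mouse set apart in 10 of the 14. It was far above the other 3 in Cdkn1a (gap over range 0.985), Lcn2 (0.902) and Plin4 (0.886), which are glucocorticoid-responsive genes. It was below the other 3 in Serping1 (0.934), Fa2h (0.918), Cd74 (0.868), Lum (0.861), Nr4a2 (0.841), Sox10 (0.841) and H2-Ab1 (0.838). In the other 4 genes SAH mouse 1 was high in Cbr2 (0.862) and Itih2 (0.849), SAH mouse 2 low in Id3 (0.857) and SAH mouse 4 high in Serpinf1 (0.89). Without SAH mouse 3 the log2 fold change went from 1.41 to -0.0186 for Cdkn1a, from 3.69 to 1.69 for Plin4 and from 5.66 to 4.6 for Lcn2.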

How the results depend on the processing

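Main counts were 201 higher and 81 lower. DESeq2 called 367 and 194, and 279 of the 282 edgeR calls were among them. A fit of all 3 groups called 307 and 146, and a threshold of 0.05 left 98 and 38. Leaving out SAH mice 3 and 4 together, a robust fit, the stricter filter (10 counts in each mouse), an unfiltered table and both other scalings kept the counts within 1.5 times. Leaving out 1 mouse gave 34 to 295 higher and 9 to 154 lower genes, lowest without Naive mouse 8 (34 and 9). Sham against Naive gave 1 call, 2 by DESeq2, 3 with the Sham and Naive mice alone and 0 to 1 with a mouse left out. Of the named genes that edgeR did not call, DESeq2 called 11 and left 26 uncalled. The fit of all 3 groups called 11 of them and left 27. No called gene that was named changed sign. Among uncalled ones, 4 did with 1 mouse left out: Cdkn1a ranged from -0.0186 (without SAH mouse 3) to 1.69, Pdgfra from -0.0797 (without SAH mouse 3) to 0.102, P2ry12 from -0.0238 (without SAH mouse 1) to 0.11 and Tmem119 from -0.0093 (without SAH mouse 4) to 0.199. Pdgfra was also -0.0051 without SAH mouse 2 and -0.011 without Naive mouse 9, and P2ry12 was -0.0164 without SAH mouse 4 and -0.0067 without Naive mouse 9. Without both SAH mice 3 and 4, Cdkn1a was -0.0478, Fkbp5 -0.0045 and Bdnf 0.0089. The shares of promoters with a motif stayed within 1.5 times by DESeq2 calls (11.8% to 7.89% for the interferon element in genes that rose), except the serum response element in genes that rose (3.47% to 2.26%). No paired analysis was possible because the groups share no replicate number. With 3 Naive mice, genes near the count minimum and folds well below a doubling are the ones this depth and number see least.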
